A study of Mus musculus with 12 samples.

Results

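The circadian clock of the mouse cochlea was followed through 10 genes: the activators Clock and Arntl, the period genes Per1, Per2 and Per3, the cryptochrome genes Cry1 and Cry2, the nuclear receptor genes Nr1d1 and Nr1d2, and the output gene Dbp. A probe was counted as theirs when it was not a control probe and its gene name on the array was that symbol. All 10 genes were found, with 145 of the 165865 exon probes used and 10 of the 19505 genes. The tissue came from C57BL/6 mice of the inbred wild-type strain, male and 6 weeks old according to the labels and killed under ketamine and pentobarbital anesthesia according to the methods. Their cochleae were cut into an apical, a middle and a basal turn to compare expression along the tonotopic axis. Each turn was measured on 4 single-color exon arrays, numbered 1 to 4, from 25 ng of total RNA each. A turn held the lateral wall with the stria vascularis and spiral ligament, the organ of Corti, and the neurons of the spiral ganglion. Fewer cells of a type and less RNA per cell can therefore not be told apart in any difference given here. The sources speak of 4 mice but do not say that a sample number stands for 1 mouse, and the hour of dissection was not given in the sources used here. The 3 slides carried 1 turn each, so slide and turn cannot be told apart. The sample number was also the position of the array on its slide for 12 of 12 arrays, so these cannot be told apart either.

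In the clock of mammalian cells, the proteins of Clock and Arntl pair up and bind E-box motifs, which drives the period and cryptochrome genes, the Rev-erb genes Nr1d1 and Nr1d2, and Dbp. Period and cryptochrome proteins return to the nucleus and repress the pair, while the Rev-erb receptors repress Arntl, which the retinoid orphan receptors activate. The loop takes about a day, so transcripts of the repressors and of Dbp peak at other hours than Arntl, and the cochlea is known to hold such a clock.

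All values below are scaled signals, the mean on the log2 scale of a gene's exon probes after each array was brought to the same 75th percentile. Before scaling this percentile lay between 534.6 and 722.1 across arrays, and 77.37% to 81.39% of spots were well above background. Probes differ in brightness, so no gene's level is set against another gene's. All 48 marker genes of 11 lists, among them those for hair cells, neurons, strial cells and ligament fibrocytes, had signal well above background on every array.

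For 9 of the 10 clock genes, all but Cry2, the highest and lowest array of each turn lay further apart than the mean signals of any pair of turns. The share of all genes for which this held was not counted, so it is not shown to be particular to the clock genes. Within every turn the arrays numbered 3 and 4 both lay above arrays 1 and 2 for 7 of the 10 genes (Per1, Per2, Per3, Cry2, Nr1d1, Nr1d2 and Dbp) and both lay below them for the other 3 (Clock, Arntl and Cry1). Among all 19505 genes, such an order in the 3 turns was found for 2.23% in the first direction and 1.39% in the second. This order was read off the array values and is given as a description with no test. The SD between arrays of a turn had a median of 0.462 on the log2 scale over the 10 genes, against 0.133 over all genes. It ran from 0.186 for Cry2, at the 68.67th percentile of all genes, to 1.45 for Dbp, at the 99.88th percentile.

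**Figure D1:**
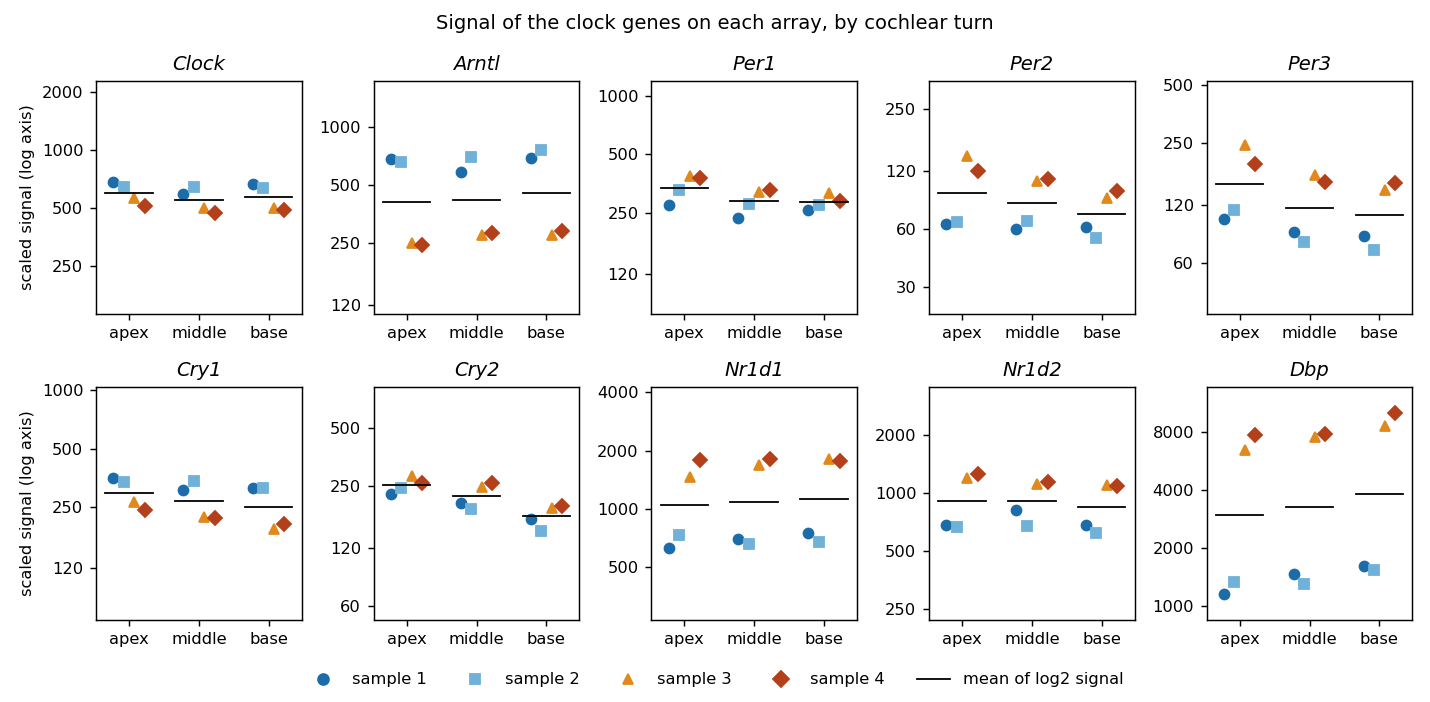
Scaled signal (log axis) of the 10 clock genes on each of the 12 arrays, grouped by turn, with the symbol giving the sample number and the line the mean of the log2 signals of the turn. Every panel spans the same 16-fold range. Arrays 3 and 4 lie apart from arrays 1 and 2 in every turn, most widely for Dbp, while the turn means of a gene lie close together.

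To measure how far the spread followed the sample number, a limma fit with turn and sample number as terms was run over all genes. It was added after the array values had been seen. Its p-values take the turns as repeats of a sample number, and these may not be independent. The sample number term passed an adjusted p of 0.05 for 27 of the 19505 genes, which is 0.138%. Of these, 6 were clock genes: Dbp, Arntl, Nr1d1, Per3, Nr1d2 and Cry1. Per2, Clock, Per1 and Cry2 missed the threshold, and all 10 had an unadjusted p under 0.05, as had 14.2% of all genes. The clock genes took 5 of the 10 smallest p values. The share of a gene's squared deviations from its turn means that lay between sample numbers was 83.6% to 99.7% over the 10 genes, with a median of 95.9%, against a median of 45.3% over all genes. With 1 array left out, the number of clock genes past the threshold was between 3 and 5. It was 3 without middle replicate 2 or without base replicate 2, and Dbp, Arntl and Nr1d1 passed in all 12 of these fits.

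Among the activators, Arntl, which codes for BMAL1, had the wider spread. Its signal, in the order of arrays 1 to 4, was 683, 658, 253 and 245 on the apical arrays, 584, 697, 276 and 282 on the middle arrays, and 688.5, 766, 278 and 289 on the basal arrays. Arrays 3 and 4 were thus the lowest in each turn, and their range over all turns did not touch that of arrays 1 and 2. By sample number, the mean over the turns was highest for sample 2 at 707 ± 54.5 (SD, n = 3 turns) and lowest for sample 3 at 269 ± 14.0, a 2.63-fold difference (limma, adjusted p = 0.00079).

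Clock, the partner of Arntl, split the same way with a smaller amplitude. It read 684, 642, 561 and 515 on the apical arrays, 588, 646, 502 and 473 on the middle arrays, and 666, 639, 503 and 489.8 on the basal arrays. Arrays 3 and 4 were again the lowest of each turn. The highest sample number exceeded the lowest 1.31-fold, and the test was not passed (limma, adjusted p = 0.099).

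The period genes, whose products form the repressor complex with the cryptochromes, were higher on arrays 3 and 4. Per3 gave 101.6, 113.2, 245.6 and 194.1 on the apical arrays, 86.45, 77.37, 171 and 157.7 on the middle arrays, and 82.67, 70.09, 143.5 and 156.2 on the basal arrays. No array of samples 3 and 4 reached down to an array of samples 1 and 2 in any turn. The sample numbers differed by up to 2.14-fold (limma, adjusted p = 0.012). The call was lost without any 1 of the 4 middle arrays (adjusted p = 0.052 to 0.067) and without base replicate 2 (adjusted p = 0.063).

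Per2 read 63.25, 65.04, 142.7 and 119.8 on the apical arrays, 59.69, 66.19, 105.8 and 108.8 on the middle arrays, and 61.41, 53.55, 86.45 and 93.88 on the basal arrays. Arrays 3 and 4 lay above arrays 1 and 2 in each turn, as for Per3, and the difference between sample numbers was 1.78-fold at most (limma, adjusted p = 0.058). Of its 22 probes 18 were well above background on all arrays, and for Per3 this held for 13 of 20.

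Per1 moved least among the period genes, with 272, 326, 386 and 376 on the apical arrays, 233, 277, 318 and 326 on the middle arrays, and 257, 273, 314 and 288 on the basal arrays. Sample 1 was the lowest of each turn, and sample 2 lay between it and the others. Its largest difference between sample numbers was 1.33-fold (limma, adjusted p = 0.20).

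The cryptochrome genes, which code for the other arm of the repressor, went opposite ways. Cry1 gave 351, 335, 265.5 and 239.8 on the apical arrays, 307, 341, 222 and 217.5 on the middle arrays, and 314, 311, 192 and 203 on the basal arrays. Like Arntl and Clock, it was lowest on arrays 3 and 4 of each turn, with 1.5-fold between the highest and the lowest sample number (limma, adjusted p = 0.046). That call was lost without any 1 of the 12 arrays (adjusted p = 0.055 to 0.18).

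Cry2 read 227.5, 244, 282 and 258 on the apical arrays, 204, 189, 248 and 259 on the middle arrays, and 169, 146, 192 and 196 on the basal arrays. It was highest on arrays 3 and 4 of each turn, but its sample numbers differed by no more than 1.26-fold (limma, adjusted p = 0.26). Cry2 had the smallest spread within turns of the 10 genes.

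The Rev-erb genes, which code for heme-binding nuclear receptors that repress Arntl, were both higher on arrays 3 and 4. Nr1d1 gave 623, 729, 1456 and 1778 on the apical arrays, 698, 658.5, 1681 and 1818 on the middle arrays, and 746, 670.2, 1814 and 1758 on the basal arrays. The lowest of the arrays numbered 3 and 4 was well over the highest of the arrays numbered 1 and 2, with 2.60-fold between sample 4 at 1785 ± 30.5 (SD, n = 3 turns) and sample 2 at 686 ± 37.8 (limma, adjusted p = 0.0012).

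Nr1d2 gave 683, 668, 1189 and 1260 on the apical arrays, 811, 675, 1107 and 1144 on the middle arrays, and 686, 617, 1095 and 1088 on the basal arrays. The sets of arrays did not overlap, and the largest difference between sample numbers was 1.78-fold (limma, adjusted p = 0.012). The call held without apex replicates 1 or 4, middle replicates 1, 3 or 4, and was lost without any 1 of the other 7 arrays (adjusted p = 0.054 to 0.080).

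The output gene Dbp, which codes for a transcription factor of the PAR bZIP family that binds D-box motifs, had the smallest p of all genes. Its signal was 1153, 1334, 6470 and 7695 on apical arrays 1 to 4, 1462, 1305, 7525 and 7778 on the middle arrays, and 1623, 1546, 8589 and 10060 on the basal arrays. The highest array exceeded the lowest 6.67-fold among the apical, 5.96-fold among the middle and 6.51-fold among the basal arrays, and in each turn the arrays of samples 3 and 4 were the high ones, without overlap. The mean over the turns was 1413 ± 239 (SD, n = 3 turns) for sample 1, 1395 ± 132 for sample 2, 7528 ± 1060 for sample 3 and 8512 ± 1340 for sample 4 (limma, adjusted p = 1.4e-05).

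Cell type markers were set beside the sample number. Of the 48 marker genes, 0 passed the sample number test in limma (smallest adjusted p = 0.27) and 8 had an unadjusted p under 0.05. For 0 of the 11 lists did the summed signal put arrays 3 and 4 both above or both below arrays 1 and 2 in all 3 turns. The strial, erythroid and immune cell lists had arrays 3 and 4 above in 2 turns. Averaged over the turns as deviations from the turn mean, the sample numbers lay 0.12 (hair cells) to 0.90 (neurons) apart in the log2 of the sums, with 0.24 for skeletal muscle. The part of these cell types in the order of the clock genes was not tested. Spike-in control probes deviated from the mean of their turn by -0.076 to 0.051 on the log2 scale when averaged by sample number.

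The same order was carried by most individual exon probes, which are separate oligonucleotides along each transcript. Sample number passed an adjusted p of 0.05 over all probes (limma) for 31 of the 145 clock gene probes, against 0.0338% of all probes. These were 4 of 4 probes of Dbp, 8 of 8 of Nr1d1, 11 of 14 of Arntl, 5 of 20 of Per3, 2 of 8 of Nr1d2 and 1 of 22 of Per2. Sample 4 lay above sample 1 for every probe of Dbp, Nr1d1, Nr1d2, Per1, Per2 and Cry2 and for 19 of the 20 probes of Per3. It lay below sample 1 for all 14 probes of Arntl, all 23 of Clock and all 12 of Cry1. The 4 Dbp probes gave log2 differences of 2.49 to 2.68 between samples 4 and 1. Probes of 1 gene share the RNA of an array and are not replicates.

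**Figure D2:**
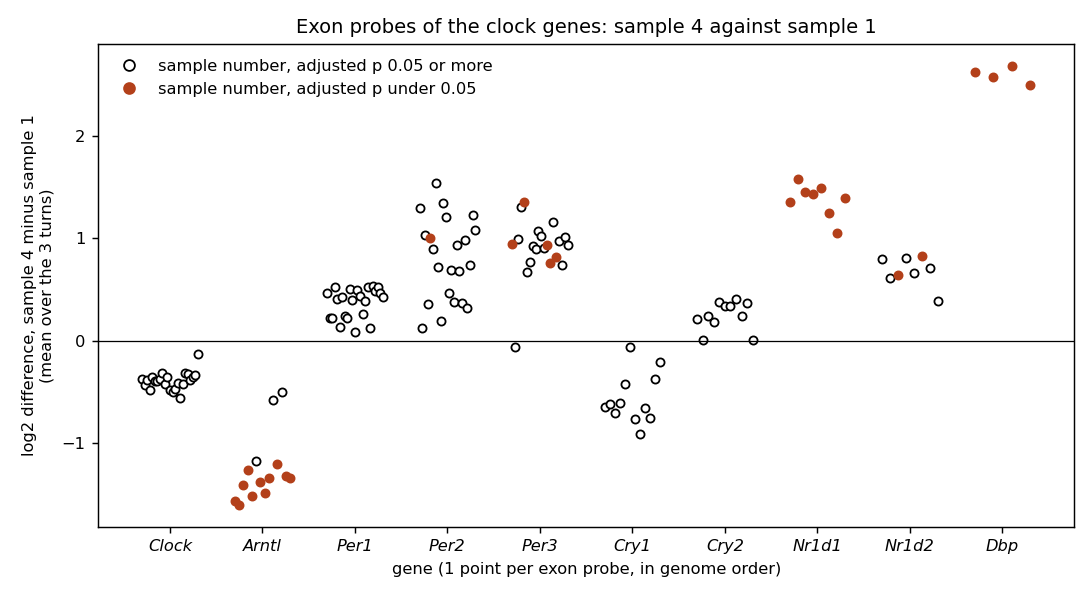
Log2 difference between sample 4 and sample 1, averaged over the 3 turns, for each of the 145 exon probes of the clock genes, in genome order within a gene. Filled points passed the limma test for the sample number over all probes. All probes of Dbp lie above 2, those of Nr1d1 above 1, and those of Clock, Arntl and Cry1 below 0.

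Between turns, Cry2 was the only clock gene to pass the test in the mean of its probes when the sample number was left out of the fit, and 1 of 6 with the number as a block. Its signal was 253 ± 23.0 (SD, n = 4) at the apex, 225 ± 33.9 at the middle and 176 ± 23.1 at the base, and no apical array was as low as any basal array. Cry2 was 1.44-fold higher in the apex than at the base, a log2 difference of 0.53 with a 95% interval from 0.26 to 0.80 (limma, adjusted p = 0.0054). The middle turn lay between the ends. It differed by 0.35 in log2 from the base (limma, adjusted p = 0.065) and the apex by 0.18 from it (adjusted p = 0.35), neither past the threshold. The interval from middle to base ran from 0.08 to 0.63, so it did not include 0, and the unadjusted p was 0.015. All 11 probes of Cry2 were higher in the apical than in the basal turn, 7 of them past the threshold, beside 18% of all probes called higher. These probes share the RNA of an array and are not replicates.

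The call for Cry2 held in 13 of 14 alternatives, median scaling and quantile normalization among them, but not with spike-in scaling. With arrays scaled to their spike-in probes, its apex to base difference was 0.04 (limma, adjusted p = 0.80), while the median of all genes lay at -0.52 in place of -0.04. The distance of Cry2 from the median of all genes was 0.57 under both scalings. Each scaling multiplies an array by 1 factor, so this distance could not differ between them and does not bear on the lost call. Markers of cell types moved with the turns as well. In the limma fit 5 of 5 hair cell markers, 6 of 6 neuron markers and 5 of 5 Schwann cell markers were higher in the apical than in the basal turn, while 4 of 5 strial and 3 of 4 ligament fibrocyte markers were lower. The hair cell markers summed to 838 to 1098 on the apical and to 241 to 338 on the basal arrays. The neuron markers summed to 25000 to 32650 on the apical and 4512 to 20440 on the basal arrays, and the Schwann cell markers to 12440 to 14030 and 6188 to 11920. The strial markers summed to 35130 to 40900 on the apical and 53170 to 72330 on the basal arrays, and the ligament fibrocyte markers to 245700 to 272900 and 486100 to 552900. The part of these cell types in the Cry2 difference was not tested.

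**Figure D3:**
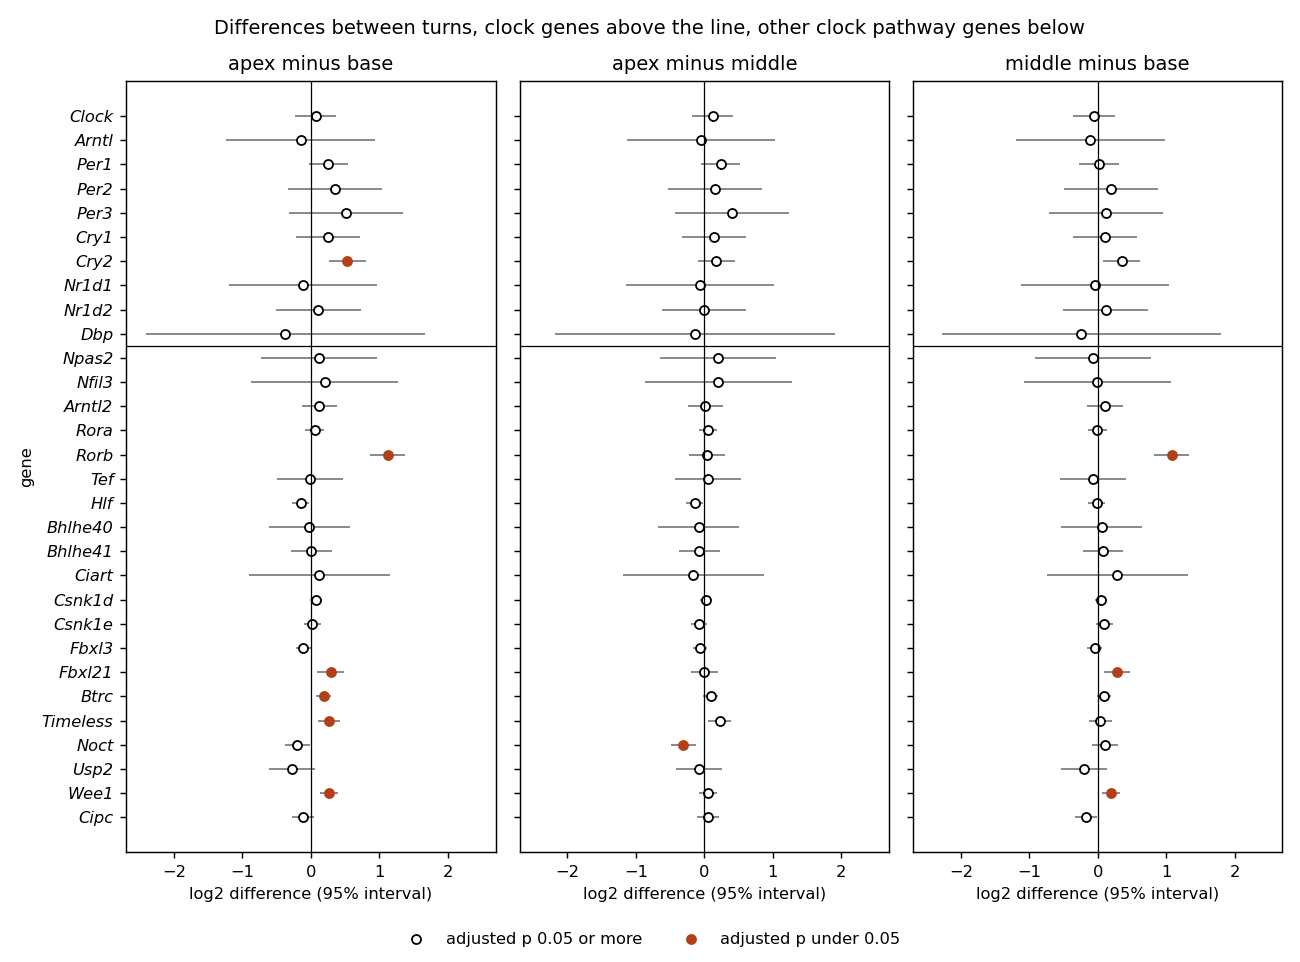
Log2 differences between turns (points) with 95% intervals (lines) from the limma fit without sample number, for the 10 clock genes above the horizontal line and the 20 other clock pathway genes below it. Filled points have an adjusted p under 0.05. Cry2 is the filled clock gene, and the intervals are widest for Dbp, Arntl and Nr1d1.

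The counts of clock genes called between turns are set here beside those of all genes. The F test over the 3 turns passed for 1 of 10 clock genes and 38.6% of all genes. Of the 10, 1 was higher and 0 were lower in the apex relative to the base (17.6% and 21.6% of all genes), 0 were higher and 0 lower in the apex relative to the middle turn (4.42% and 7.59%), and 0 were higher and 0 lower in the middle turn relative to the base (11.7% and 9.21%). At an unadjusted p under 0.05, 1 clock gene differed from apex to base, 0 from apex to middle turn, and 1 from middle turn to base (Cry2 in both). The median log2 difference from apex to base was 0.18 over the clock genes and -0.04 over all genes, and 7 of the 10 were positive. None was past the threshold with a 2-fold difference.

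The width of the intervals has to be kept in view for the genes with a large spread within turns. Dbp was 4163 ± 3410 (SD, n = 4) at the apex, 4518 ± 3620 at the middle and 5456 ± 4510 at the base. Its log2 difference from apex to base was -0.38 with a 95% interval from -2.42 to 1.66 (limma, adjusted p = 0.79), so differences of up to several-fold in either direction lay within the interval of this fit, which counts the spread between sample numbers as error. The intervals of Arntl (-1.24 to 0.93) and Nr1d1 (-1.19 to 0.97) were narrower than that of Dbp and still took in a log2 difference of 0.93 in both directions, around differences of -0.15 and -0.11. That of Clock was narrower still, from -0.23 to 0.37.

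The period genes and Cry1 had their highest mean in the apex, with no call at the gene level in the fit without sample number. Per3 was 164 ± 68.4 (SD, n = 4), 123 ± 48.1 and 113 ± 43.1 from apex to base, with a log2 difference of 0.52 between the ends (95% interval -0.31 to 1.35, limma, adjusted p = 0.33). Per2 was 97.7 ± 39.9, 85.1 ± 25.8 and 73.8 ± 19.4 in the same order, with a difference of 0.35 (-0.34 to 1.04, adjusted p = 0.44). Cry1 had 298 ± 53.6, 272 ± 61.6 and 255 ± 66.5 and a difference of 0.24 (-0.22 to 0.71, adjusted p = 0.43). In each of these genes the arrays of the 3 turns overlapped.

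More clock genes were called between apex and base when the sample number was a block in the limma fit. Then 5 of the 10 were higher and 1 was lower in the apex, beside 18.8% and 23.1% of all genes. Per3 was higher by 0.52 in log2 (95% interval 0.32 to 0.72, adjusted p = 0.0019), and its apical array exceeded the basal array of the same number by 0.30 to 0.78 in 4 of 4 pairs. Dbp was lower, at -0.38 (-0.53 to -0.22, adjusted p = 0.0028), with -0.49 to -0.21 in the 4 pairs. Per1 (0.26, adjusted p = 0.008), Per2 (0.35, adjusted p = 0.025), Cry1 (0.24, adjusted p = 0.018) and Cry2 (0.53, adjusted p = 0.00049) were higher, each in 4 of 4 pairs. Clock, Arntl, Nr1d1 and Nr1d2 were not called (adjusted p = 0.12 to 0.32), though Clock was higher and Arntl lower in 4 of 4 pairs as well. How many of all genes had 4 of 4 pairs in the same direction was not counted. These calls hold only if a number marks arrays that belong together, which the labels do not state. They are also given for the percentile scaling only. With arrays scaled to their spike-in probes and no block, the apex to base difference was -0.23 for Per1, -0.14 for Per2 and -0.24 for Cry1. It was 0.03 for Per3, 0.04 for Cry2 and -0.86 for Dbp under that scaling.

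Per1 was the one clock gene with exon probes called in both directions between apex and base. Its mean over probes was 340 ± 52.2 (SD, n = 4) at the apex, 288 ± 42.7 at the middle and 283 ± 24.3 at the base, a log2 difference of 0.26 between the ends (95% interval -0.03 to 0.54, limma, adjusted p = 0.16). Of its 23 probes 20 were higher in the apex, 6 of them past the threshold, and 3 were lower, 2 of them past it. Over all probes, 18% were called higher and 16.4% lower in the apical relative to the basal turn. The 2 called lower were also among the 3 brightest probes of the gene, and its direction changed with the way in which probes were combined. With the log2 of the mean linear signal Per1 was 0.46 lower in the apex (log2 difference -0.46, limma, adjusted p = 0.00059), and with the median of its probes it was 0.47 higher (adjusted p = 0.016). It was also called higher without apex replicate 1 (0.36, adjusted p = 0.044).

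The 2 probes called lower are printed so that they can be told from the rest. The array assigns both to Per1, on the plus strand of chromosome 11 in mm9 coordinates, and whether their 60 bases also match transcripts of other genes was not analysed here, so their signal may not be that of Per1 alone. The first lies at chr11:68915290-68915349 and the second at chr11:68917089-68917148, and no letters are in capitals.
Per1 probe at chr11:68915290-68915349: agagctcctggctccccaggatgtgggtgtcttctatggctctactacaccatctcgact
Per1 probe at chr11:68917089-68917148: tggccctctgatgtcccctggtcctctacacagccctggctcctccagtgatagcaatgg
The first read 1872 ± 110 (SD, n = 4) at the apex, 2548 ± 334 at the middle and 3288 ± 94.3 at the base, with a log2 difference from apex to base of -0.81 (limma, adjusted p = 0.00011). The second read 64460 ± 2920, 84030 ± 10600 and 96420 ± 2060, a difference of -0.58 (adjusted p = 0.00053). Averaged over the 12 arrays the second gave 81630, at the 99.89th percentile of all probes, while the other 21 Per1 probes had a median of 181. Both had little of the pattern by sample number, with 0.13 and 0.09 in log2 between samples 4 and 1, where the Per1 probes ranged from 0.09 to 0.54.

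**Figure D4:**
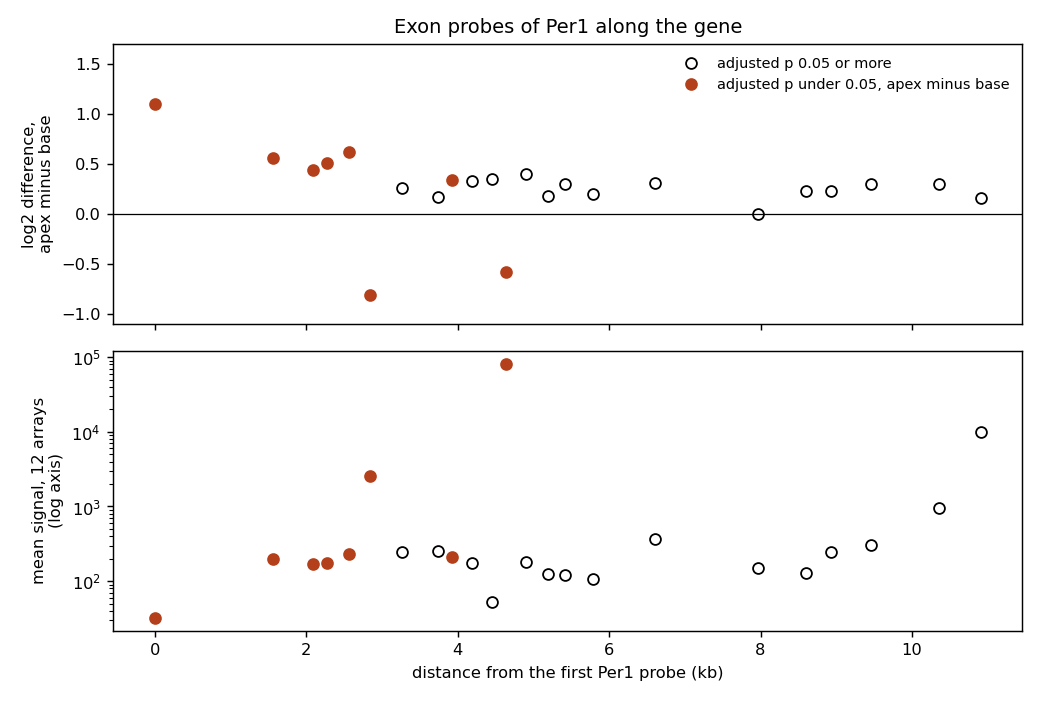
Exon probes of Per1 by distance from the first probe (kb): log2 difference between apex and base (top) and mean signal over the 12 arrays on a log axis (bottom). Filled points passed the limma test over all probes. The 2 filled probes below 0 in the upper panel have means of 2569 and 81630 in the lower panel.

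Since the arrays separated by sample number in all 10 genes, their promoters were searched for the motifs of the loop's own factors in the windows given by RefSeq for GRCm38.p6, 250 bases before to 50 after each start, on both strands. A window was at hand for 9 of the 10 genes, and Per2 had none. Clock, Per1 and Arntl had more than 1 window, while the shares given for all windows count each window. The E-box CACGTG, bound by the Clock and Arntl pair, was in 7.15% of all 32851 windows. It was in that of Cry1 and in the Per1 window printed below, but not in the other Per1 window. The D-box TTANGTAA, bound by Dbp, was in 2.32% of windows and in that of Per3, at 2 places. The response element of the Rev-erb and retinoid orphan receptors (RORE) was in 0.435% of windows. A window of Arntl held it in the part after the start, and the other Arntl window did not. Each match describes letters only. Per1 and Cry1 share the E-box but were high on different arrays, and Dbp, with the widest spread, had none of the 3 motifs in this window.

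The stretches of 250 bases before the start are shown for those of the 10 genes that hold an E-box or a D-box there. They run in the direction of transcription, with the motif in capitals. Ciart, a clock repressor outside the 10 genes that had the second smallest p for the sample number, is added because its window holds 3 E-boxes. Of 15 other pathway genes with a window, 4 held an E-box (Ciart, Tef, Bhlhe41 and Cipc) and 2 a D-box (Rorb and Timeless). Ciart and Tef passed the sample number test, while Bhlhe41, Cipc, Rorb and Timeless did not. A link between motif and sample number was not tested.
Per1, chr11:69098699-69098948, plus strand: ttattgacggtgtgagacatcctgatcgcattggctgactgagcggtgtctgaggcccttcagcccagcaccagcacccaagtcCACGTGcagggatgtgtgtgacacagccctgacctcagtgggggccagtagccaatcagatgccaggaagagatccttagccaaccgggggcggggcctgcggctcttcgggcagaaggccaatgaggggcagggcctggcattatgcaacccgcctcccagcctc
Cry1, chr10:85185055-85185304, minus strand: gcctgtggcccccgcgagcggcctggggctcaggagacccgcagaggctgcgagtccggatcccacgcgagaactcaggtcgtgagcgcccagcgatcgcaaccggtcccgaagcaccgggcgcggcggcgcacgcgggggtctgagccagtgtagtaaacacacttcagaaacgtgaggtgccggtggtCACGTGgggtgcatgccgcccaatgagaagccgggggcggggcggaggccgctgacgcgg
Per3, chr4:151044666-151044915, minus strand: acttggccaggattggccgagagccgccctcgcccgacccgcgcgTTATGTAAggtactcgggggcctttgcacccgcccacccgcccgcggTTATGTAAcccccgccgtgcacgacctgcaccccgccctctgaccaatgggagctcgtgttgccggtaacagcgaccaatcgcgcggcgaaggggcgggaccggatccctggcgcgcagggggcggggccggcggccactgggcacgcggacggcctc
Ciart, chr3:95882229-95882478, minus strand: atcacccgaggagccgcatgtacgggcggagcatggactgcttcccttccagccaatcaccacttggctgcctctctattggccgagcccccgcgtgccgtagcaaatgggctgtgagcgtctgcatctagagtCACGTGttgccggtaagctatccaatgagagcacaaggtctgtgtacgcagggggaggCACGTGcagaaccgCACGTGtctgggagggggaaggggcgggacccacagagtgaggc
The E-box lies 166 bases before the start in Per1 and 60 in Cry1, and the E-boxes of Ciart lie at 116, 58 and 44. The D-boxes of Per3 lie at 205 and 158.

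Of the 20 other genes of the clock pathway, 5 passed the sample number test and 15 did not. Ciart, named Gm129 on the array, read 93.98, 90.12, 223.9 and 215.1 on the apical arrays, 114.6, 96.22, 232.7 and 250.3 on the middle arrays, and 80.8, 83.65, 209.5 and 204 on the basal arrays (limma, adjusted p = 0.00065). Arrays 3 and 4 lay above arrays 1 and 2 in each turn, as for Dbp. Tef, a PAR bZIP factor like Dbp, differed by up to 1.52-fold between sample numbers (adjusted p = 0.0035) and Bhlhe40, a repressor of the Clock and Arntl pair, by 1.74-fold (adjusted p = 0.0025), both higher on arrays 3 and 4 of each turn. Nfil3, which represses at D-boxes, differed 2.57-fold (adjusted p = 0.0012) and Npas2, which can take the place of Clock, 2.13-fold (adjusted p = 0.025), both lower on arrays 3 and 4 like Arntl. The values of Nfil3 rest on 1 exon probe.

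Between turns, the largest log2 difference in the other pathway genes was that of Rorb. Rorb, an orphan receptor of the family that activates Arntl, was 281 ± 18.9 (SD, n = 4) at the apex, 276 ± 44.4 at the middle and 130 ± 14.1 at the base. Its log2 difference of 1.12 from apex to base (95% interval 0.87 to 1.38, limma, adjusted p = 3.7e-05) was the one past 2-fold in the list, and it was 1.08 from middle to base (adjusted p = 0.00017). Fbxl21, Btrc, Timeless and Wee1 were also higher in the apical than in the basal turn, by 0.18 to 0.29 in log2. This makes 5 of 20 higher and 0 lower, beside 17.6% and 21.6% of all genes. Timeless was dim, with means of 46.84 at the apex and 38.94 at the base, and its apical and basal arrays overlapped. Of its 27 probes, 9 were well above background on all arrays and 6 on none. Noct was lower in the apex than in the middle turn (-0.30, adjusted p = 0.042).

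**Figure D5:**
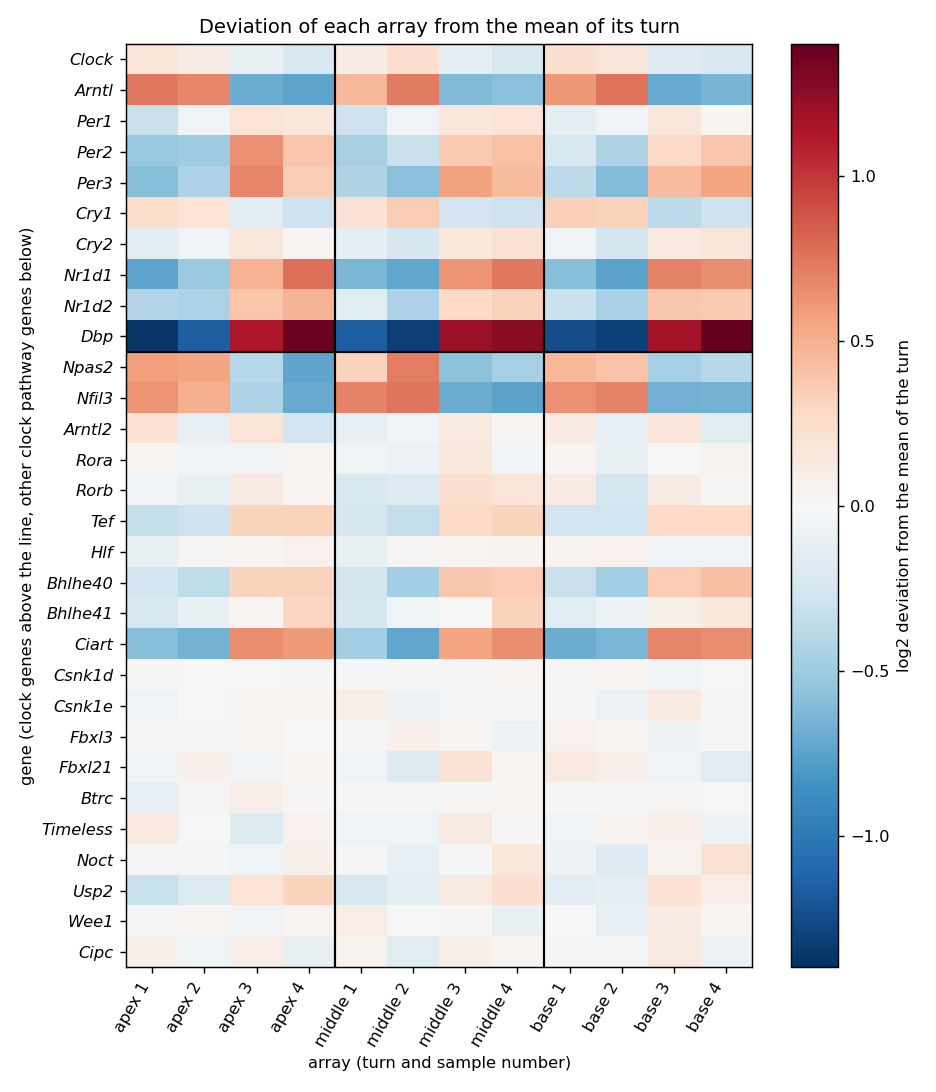
Log2 deviation of each array from the mean of its turn, for the 10 clock genes (above the line) and the 20 other clock pathway genes (below). Columns are the 12 arrays by turn and sample number. Dbp, Nr1d1, Per2, Per3, Ciart, Tef and Bhlhe40 change from blue to red between samples 2 and 3 in each turn, Arntl, Npas2 and Nfil3 from red to blue, and casein kinase genes Csnk1d and Csnk1e stay pale.

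Genes with the profile most like the clock genes were ranked among 16010 genes by Pearson's r of the deviations from turn means over the 12 arrays. Because the arrays of each turn lay apart by sample number, r describes that separation, and no p is given. For Dbp the 5 highest were Tef (r = 0.9952), Ciart (0.993), Tcap (0.991), Bhlhe40 (0.9843) and Cdc25b (0.9811), and the same 5 genes led for Nr1d1, from 0.9799 to 0.9902. For Arntl they were C2cd4b (0.9925), Nfil3 (0.9807), Npas2 (0.9802), Tmem171 (0.9687) and Spon2 (0.9623). Among these, Tef, Ciart, Bhlhe40, Nfil3 and Npas2 were in the list of 20 other clock pathway genes. They are the genes of that list that passed the sample number test, so the ranking restates that separation.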

How the data were processed

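Total RNA of cochlear turns was labeled with Cy3 and hybridized to Agilent mouse exon arrays. The deposited values are fluorescence intensities written by Agilent Feature Extraction 10.7.3.1 (gProcessedSignal, background-subtracted), and probe positions are mm9 per the file headers. The series matrix held the same intensities. Control spots (7914 of 180880 per array) and flagged spots were left out, which removed 119 probes. Intensities were scaled to each array's 75th percentile, taken to log2 and averaged over the probes of a gene. Turns were compared with limma 3.58.1 in R 4.3.3 over 12 arrays, with Benjamini-Hochberg adjustment over all genes or all probes and a threshold of 0.05. Groups came from the labels. The labels do not say which mouse a sample came from. In the fit without sample number, p-values measure the spread between the samples of a turn. With the number as a term or block, they measure what is left after turn and number. There the 3 turns serve as repeats of a number, and they may not be independent. The number of arrays limits the precision. The named genes are the 10 members, 20 other clock genes and, for Dbp, Nr1d1 and Arntl, the 5 genes outside the members with the highest r. 1 further gene of the list is not reported here. Members and lists were chosen with earlier results of these data known. Older symbols on the array were read as Ciart, Cipc and Noct. Correlations between pairs of clock genes were not reported, because the arrays of a turn fell apart by sample number. The scripts were tested on simulated data. Alternatives covered scaling, background correction, probe summary, filters, test, replicate block and each array left out in turn.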

Additional observations from a re-analysis of the deposited data

Results flagged for a closer look

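Among 90 sets of 4 arrays (each clock pathway gene in each turn), 1 held an array far from the others, and chance alone gives about 5% of such sets. In the middle turn Cipc, which codes for a partner and inhibitor of Clock, read 207.9 on array 2 and 241.1 to 247 on the other arrays, and the gap was 0.859 of the range on the log2 scale, past the critical value of Dixon's test at the 95% level.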

How the results depend on the processing

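Dbp, Arntl and Nr1d1 passed the sample number test in all 12 fits without 1 array and in all 12 other alternatives. The count of clock genes passing it was 6, ranged from 3 to 5 with 1 array left out (3 without middle replicate 2 and without base replicate 2), was 3 with the unmoderated F test, and lay within 1.5 times of 6 otherwise. Cry2 was called between apex and base in all 12 fits without 1 array (0.44 to 0.59 in log2) and in 13 of 14 alternatives. With spike-in scaling 0 clock genes were higher and 1 was lower in the apex than in the base, Clock, which turned to -0.42 (adjusted p = 0.016), and 5.13% of all calls were higher against 45%, with 26.5% under median scaling. The split was within 10 points under the other scalings. With the median of probes 2 clock genes differed over the turns and 2 were higher in the apex than at the base. With the log2 of the mean linear signal 2 differed over the turns, 1 was lower in the apex than in the base and 1 lower in the apex than in the middle turn, Per1 in both (-0.46 and -0.28, adjusted p = 0.00059 and 0.037). Under these summaries, normexp background correction and the filter on dim probes, 1 was higher in the middle turn relative to the base (Cry2). Without apex replicate 1, 2 were higher in the apex than at the base (range 1 to 2), and without middle replicate 2, 1 was higher in the middle turn relative to the base (range 0 to 1). The labels give the turns the same sample numbers but do not state that a number marks 1 mouse, so the main fit did not take numbers as pairs. Deviations were correlated over 0.1 across genes in 6 of 12 same-numbered pairs of arrays (mean 0.0949, from -0.0367 to 0.2274). This held for 2 of the 36 other pairs (mean -0.0313, from -0.2613 to 0.2542). The highest correlation of all was that of a pair with different numbers, middle array 1 and basal array 3. Of the 12 arrays, 8 correlated best with their own number. Whether a number marks 1 mouse was not tested. With the replicate block and the percentile scaling, 5 clock genes differed over the turns. In the apex 5 were higher (Per1, Per2, Per3, Cry1 and Cry2) and 1 lower (Dbp) than in the base, and 2 higher than in the middle turn. In the middle turn 1 was higher and 1 lower relative to the base. Over all genes the block moved the calls from 7645 to 8167, 2343 to 3319 and 4071 to 5063. The cause of these changes was not tested.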

Other observations

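Of the 27 genes whose signal passed the sample number test in limma, 16 belonged to neither clock list, and the values of those most like a clock gene were as follows. They were named by the rule of highest r. Tcap, which codes for a titin-binding protein of muscle, read 209.9, 208.6, 1695 and 2614 on the apical arrays, 235.9, 205.5, 2590 and 2470 on the middle arrays, and 597.8, 470.1, 3421 and 3689 on the basal arrays (adjusted p = 0.0011). No other gene of those named spanned a wider range between sample numbers, at 3.40 on the log2 scale, and arrays 3 and 4 lay above arrays 1 and 2 in each turn. The muscle markers Acta1, Ckm, Myh4 and Tnnt3 did not share this order, since arrays 3 and 4 did not both lie above arrays 1 and 2 in the summed signal of any turn. C2cd4b, a nuclear protein gene, went the other way, with 1595, 1495, 364.8 and 372.4 on the apical arrays, 1653, 1922, 700.6 and 758.4 on the middle arrays, and 1565, 1656, 469 and 464.4 on the basal arrays (adjusted p = 0.012). Cdc25b, a phosphatase that activates cyclin-dependent kinases, differed by 0.56 in log2 between the highest and lowest sample number (adjusted p = 0.026), Tmem171 by 0.54 (adjusted p = 0.041) and Spon2, an extracellular matrix protein, by 1.06, which missed the threshold (adjusted p = 0.079).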
